A study of Mus musculus with 18 samples.

Results

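Transcripts of 9 mouse genes that make, acetylate, oxidize, or control the polyamines were followed: Odc1, Amd1, Srm, Sms, Sat1, Smox, Oaz1, Oaz2, and Azin1. They were found by matching the Ensembl identifiers of the count table to these symbols in the GENCODE annotation of GRCm38, which gave 9 of the 48023 genes in the table, and all 9 had enough reads to be tested. The cells were brown preadipocytes of mouse, the undifferentiated precursors of thermogenic fat cells, from a line immortalized with SV40 T antigen, which all groups share. They received either vehicle (Veh) or FGF6, a fibroblast growth factor, and RNA was sequenced after 4, 8, or 24 h, with 3 libraries in each of the 6 groups (18 in all). The labels do not say whether libraries of a group came from separate cultures, so p-values measure the spread between these libraries, which may be technical.

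Polyamines (putrescine, spermidine, and spermine) are small positively charged molecules that bind nucleic acids and are needed for growth and translation. Ornithine decarboxylase makes putrescine, aminopropyl groups donated by decarboxylated S-adenosylmethionine turn it into spermidine and then spermine, and acetylation or oxidation leads back. Antizymes bind ornithine decarboxylase and send it to the proteasome, and antizyme inhibitors hold the antizymes back. In fat cells, the acetylation branch is known for consuming acetyl-CoA as polyamines are made and broken down again.

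Some of these controls are written in short stretches of the transcripts, and they are shown because RNA counts cannot see them at work. Full-length antizyme is made only when the ribosome skips 1 base at a stop codon, a step that polyamines promote. In the lines for Oaz1 (chr10:80828282-80828308, + strand) and Oaz2 (chr9:65686259-65686285, + strand), read from GENCODE transcripts on GRCm38, the capitals mark the last codon of the first frame and its stop, and the base left out in the annotated frameshift is the 14th. Amd1 has a short reading frame ahead of its main one (chr10:40302155-40302175, − strand, in the 5′ UTR), known for slowing translation when polyamines are plentiful. Its start and stop codons are in capitals, with 6 codons before the stop.
Oaz1 frameshift site: tcggtggtgcTCCTGAtgtccctcacc
Oaz2 frameshift site: tctgtggtgcTCCTGAtgcccctcacc
Amd1 upstream frame: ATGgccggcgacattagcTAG

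Start regions are shown for 3 members, Odc1 because it changed most, Sat1 because it opens the opposite branch, and Sms because 1 of its 2 windows held the only E-box found. RefSeq start windows on GRCm38.p6, running from 250 bases before to 50 bases after a start, were matched for 7 of the 9 members (not Srm and Azin1). They were searched on both strands for CACGTG (the E-box, bound by MYC), TGACGTCA (cyclic AMP response element), TGANTCA (AP-1 site), CGGAAG (ETS core), GGGCGG (GC box), and TATAAA (the usual TATA box). Matches are in capitals, and sequence outside these windows, introns included, was not searched. Odc1 (chr12:17544623-17544922, + strand) held 4 GC boxes, Sat1 (chrX:155216400-155216699, − strand) held 2 ETS cores and 2 GC boxes, and this Sms window (chrX:157492238-157492537, − strand) held 1 E-box and 1 ETS core. Among all 32851 windows of the same length, 7.15% held the E-box, 1.79% the cyclic AMP response element, 7.81% the AP-1 site, 16.9% the ETS core, 35.7% the GC box, and 13.6% the TATA box. The cyclic AMP response element and the AP-1 site were in none of the members' windows, and the TATA box was in that of Oaz1 alone among the 7 members.
Odc1: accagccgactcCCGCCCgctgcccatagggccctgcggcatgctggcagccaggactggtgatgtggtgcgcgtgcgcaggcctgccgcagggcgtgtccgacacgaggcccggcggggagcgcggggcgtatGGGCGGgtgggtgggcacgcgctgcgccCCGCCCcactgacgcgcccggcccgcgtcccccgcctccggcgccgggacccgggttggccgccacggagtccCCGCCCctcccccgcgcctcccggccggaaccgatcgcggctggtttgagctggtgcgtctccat
Sat1: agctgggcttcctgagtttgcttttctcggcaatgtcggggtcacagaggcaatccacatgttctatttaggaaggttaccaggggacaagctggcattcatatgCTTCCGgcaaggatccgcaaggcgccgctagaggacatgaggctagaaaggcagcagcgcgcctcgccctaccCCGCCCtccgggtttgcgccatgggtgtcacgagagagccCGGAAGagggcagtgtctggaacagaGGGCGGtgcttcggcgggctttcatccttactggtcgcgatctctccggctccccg
Sms: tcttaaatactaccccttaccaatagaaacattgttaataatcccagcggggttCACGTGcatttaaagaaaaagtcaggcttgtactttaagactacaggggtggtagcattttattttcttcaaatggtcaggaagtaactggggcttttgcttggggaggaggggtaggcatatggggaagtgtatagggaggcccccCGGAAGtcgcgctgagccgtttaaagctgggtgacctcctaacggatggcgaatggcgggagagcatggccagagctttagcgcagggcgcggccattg

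Library totals ranged from 24327816 to 33471980 counts (median 28922204.5), and each of the 18 libraries lay nearest the mean of its own group. Vehicle replicate 3 at 24 h stood apart, with a chi-square per degree of freedom of 37.9 and 41.3 against the other libraries of its group, where all other pairs within a group lay between 2.44 and 7.63. The FGF6 effects of the members and the calls of pathway genes at 24 h are therefore also given without this library. Other values at 24 h, such as levels, ratios, marker sums, and counts of 2-fold changes, include it. Levels are given as CPM, read counts scaled to a common total per library, and a difference as a log2 fold change ± standard error from edgeR's quasi-likelihood model over all 18 libraries, with p-values adjusted by the Benjamini-Hochberg method over 15071 genes. A gene is called when this adjusted p is under 0.05. In bulk RNA, fewer cells of a type and less RNA per cell cannot be told apart. Of the preadipocyte and stromal markers, 7 of 8 were present, including Pdgfra and Ebf2, and Dlk1 had no counts in any library. The summed level of these 8 markers was lower with FGF6, at 2420 to 2560 CPM against 3900 to 4090 at 4 h, 2870 to 3060 against 5420 to 5700 at 8 h, and 1400 to 1470 against 5960 to 6390 at 24 h. Most of this sum is collagen and Pdgfrb RNA, and Cd34 was higher with FGF6 at 24 h, at a mean of 42.95 CPM against 16.5. The summed levels of other cell types' markers were low and also moved with FGF6. Those of 4 immune markers were 16.3 to 16.7 CPM with FGF6 against 10.6 to 11.6 with vehicle at 4 h and 2.99 to 3.64 against 5.67 to 6.2 at 24 h. Endothelial markers were at 3.71 to 5.65 against 0.965 to 1.3 CPM at 24 h, epithelial markers at 1.57 to 2.57 against 0.168 to 0.49, muscle markers at 1.86 to 2.35 against 7.36 to 9.75, and 6 mature adipocyte markers at 0.679 to 0.954 against 1.43 to 1.57, with Ucp1 at 0 counts in all groups but FGF6 at 24 h, where it was 0.620 to 0.918 CPM. Individual genes carried or opposed several of these sums. In each group, 3 of the 4 immune markers had few or no counts. That sum was nearly all Cd68, with means of 16.5 against 11.1 CPM at 4 h. At 24 h, the endothelial marker Cdh5 was at a mean of 3.59 against 0.0582 CPM, while Tek was at 0 against 0.177. Adipoq and Plin1 had no counts with FGF6 at 24 h, against means of 0.612 and 0.864 CPM with vehicle. The part of these marker differences in the results was not tested.

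FGF6 raised the transcripts of all 4 synthetic enzymes and of both catabolic enzymes at every time, and Oaz2 was lower. At 4 h, 7 members were called higher (Odc1, Amd1, Srm, Sms, Sat1, Smox, and Azin1), 1 lower (Oaz2), and 1 did not pass (Oaz1), where 62.8% of all genes tested were called, 28.6% higher and 34.2% lower. At 8 h, 7 were called higher and 2 lower (Oaz1 and Oaz2), against 70.8% of all genes called, 32.4% higher and 38.4% lower. At 24 h, 7 were called higher, 1 lower, and 1 (Oaz1) did not pass, against 73.8% of all genes called, 35.9% higher and 37.9% lower. The 7 higher members were the same at the 3 times. Without vehicle replicate 3 at 24 h, 7 were again higher and 1 lower at 24 h, where 71% of all genes tested were called. The log2 fold changes were then 2.30 for Odc1, 1.11 for Amd1, 0.89 for Srm, 1.07 for Sms, 1.25 for Sat1, 1.40 for Smox, 0.30 for Azin1, −0.19 for Oaz2 (adjusted p = 0.00574 in edgeR), and −0.05 for Oaz1 (adjusted p = 0.249). At the adjusted p of 0.25 that the study used, 8, 9, and 9 of the 9 members were called, against 75.7%, 82.1%, and 83.4% of all genes. With so many genes called, a called member is not a rare event, and the sizes separate the members more than the calls do.

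At least 2-fold higher and called were 2 members at 4 h (Odc1 and Sat1), 3 at 8 h (Odc1, Srm, and Sat1), and 5 at 24 h (Odc1, Amd1, Sms, Sat1, and Smox). Among all genes, 4.96%, 7.39%, and 7.44% met that rule at 4, 8, and 24 h. The median log2 fold change of the 9 members was 0.53 at 4 h, 0.69 at 8 h, and 1.01 at 24 h, beside −0.05, −0.05, and −0.02 over all genes tested. The CPM of the FGF6 and vehicle libraries did not overlap for 8 members at 4 h and for 9 at 8 h and 24 h, as was so for 66.2%, 73.8%, and 74.8% of all genes. How reads were scaled matters most at 4 h. When libraries were scaled by their totals alone rather than by TMM factors, the median of all genes moved by −0.102 and the share of calls that were higher fell from 45.5% to 33.3%.

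**Figure D1:**
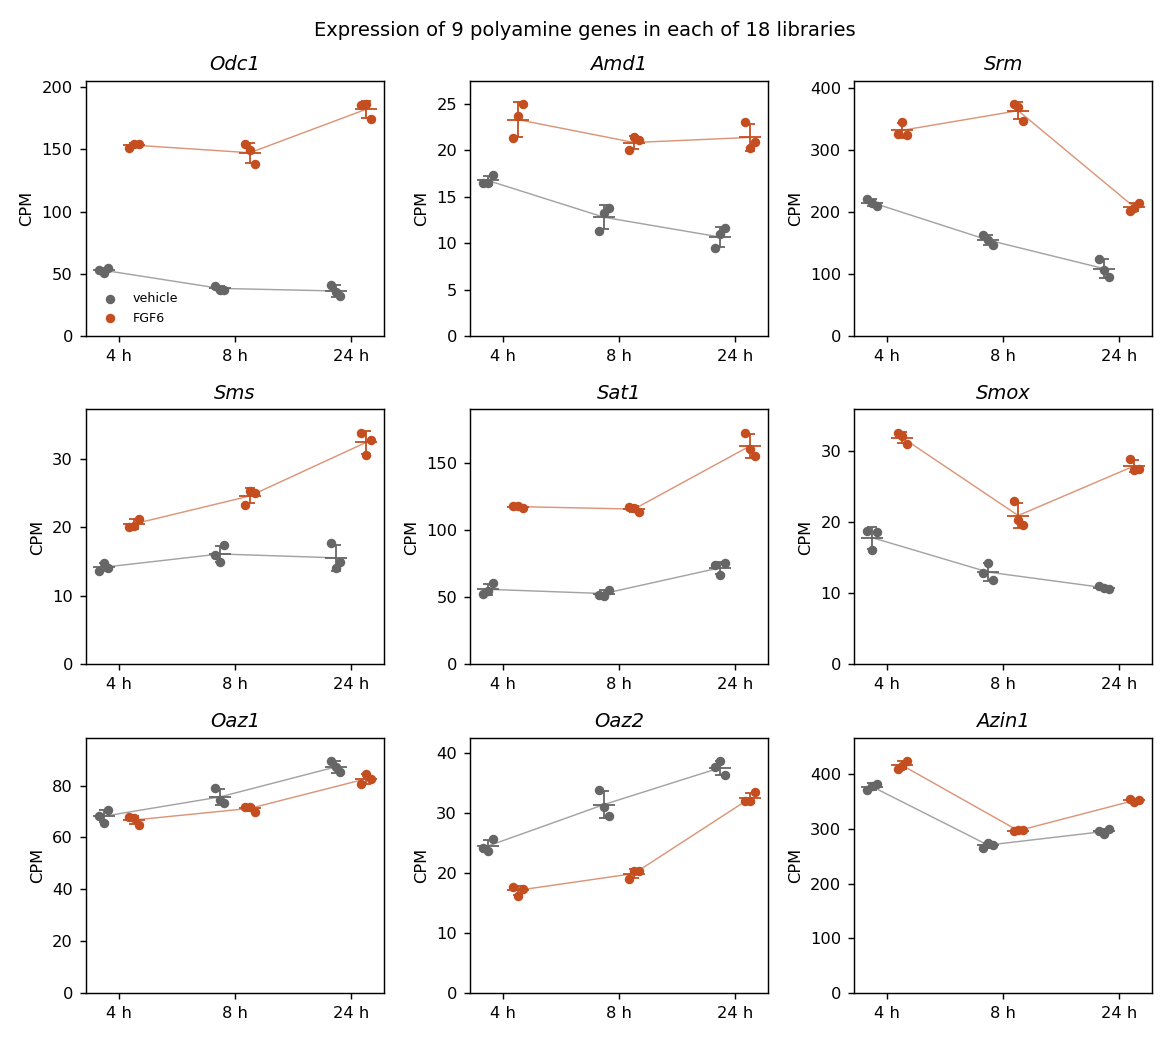
CPM of each member (y axis, from 0, in its own panel) at 4, 8, and 24 h (x axis, equally spaced), with 1 point per library, vehicle in grey and FGF6 in orange, and horizontal marks and bars giving the mean ± SD of 3 libraries. The FGF6 points of Odc1 sit at 138 to 186 CPM and its vehicle points at 32.4 to 54.3 CPM, while the points of Oaz1 lie close together.

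Odc1 encodes ornithine decarboxylase, the first and rate-limiting enzyme of polyamine synthesis, and lies at chr12:17544794-17551505 (+ strand). In order of the replicate numbers, the vehicle libraries had 53.35, 50.75, and 54.3 CPM at 4 h, and the FGF6 libraries had 151, 154, and 154.5 CPM. At 8 h, the values were 40.2, 37.35, and 37.2 CPM with vehicle and 154, 149.5, and 138 CPM with FGF6. At 24 h, they were 41.1, 35.0, and 32.4 CPM with vehicle and 186, 186, and 174 CPM with FGF6. Every FGF6 library stood far above every vehicle library, and Odc1 had the largest change of the 9 members at each time. The log2 fold change was 1.54 ± 0.05 at 4 h (adjusted p = 3.99e-18), 1.95 ± 0.06 at 8 h (adjusted p = 3.17e-20), and 2.33 ± 0.06 at 24 h (adjusted p = 6.06e-22). The effect at 8 h exceeded that at 4 h by 0.41 ± 0.08 (adjusted p = 0.000245), and the effect at 24 h exceeded that at 8 h by 0.38 ± 0.08 (adjusted p = 0.00029). From 4 to 8 h, Odc1 fell by 0.46 on the log2 scale with vehicle (adjusted p = 4.22e-07), while the change with FGF6 was −0.06 ± 0.05 (adjusted p = 0.381). Between 8 and 24 h, it rose by 0.31 ± 0.05 with FGF6 (adjusted p = 1.14e-05), and the vehicle change was −0.08 ± 0.06 (adjusted p = 0.297). That vehicle change passed without vehicle replicate 1 at 24 h (−0.18, adjusted p = 0.0094) and with library sizes alone (−0.155, adjusted p = 0.0477). Of the distinct 50-base stretches in its transcripts, 24.3% also occur in transcripts of 16 other annotated genes, and 42.2% of those in its coding transcripts are shared.

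Amd1 encodes S-adenosylmethionine decarboxylase, which makes the donor of aminopropyl groups (chr10:40287458-40302186, − strand). Its vehicle libraries had 16.5, 16.5, and 17.4 CPM at 4 h, and its FGF6 libraries 21.3, 23.7, and 25.0 CPM. The values at 8 h were 11.4, 13.2, and 13.8 CPM with vehicle and 20.02, 21.4, and 21.1 CPM with FGF6. At 24 h, it had 9.46, 10.95, and 11.6 CPM with vehicle and 23.0, 20.3, and 20.9 CPM with FGF6. The groups did not overlap, and the FGF6 libraries stayed near one level while vehicle libraries came down. FGF6 changed Amd1 by a log2 fold of 0.48 ± 0.08 at 4 h (adjusted p = 5.8e-06), 0.70 ± 0.08 at 8 h (adjusted p = 1.66e-08), and 1.01 ± 0.08 at 24 h (adjusted p = 3.6e-11). The effect at 24 h exceeded that at 4 h by 0.53 ± 0.11 (adjusted p = 0.000268). In vehicle, Amd1 fell by 0.39 from 4 to 8 h (adjusted p = 0.000289) and by 0.26 from 8 to 24 h (adjusted p = 0.0131), whereas with FGF6 the changes were −0.16 ± 0.07 (adjusted p = 0.0806) and 0.04 ± 0.08 (adjusted p = 0.684). The second vehicle call was lost without vehicle replicate 1 at 24 h (−0.19) or replicates 2 (−0.24) or 3 (−0.21) at 8 h. Its counts are uncertain, since 78.1% of the 50-base stretches (86% of those in coding transcripts) are shared with other annotated genes, first among them Amd2 and the Amd pseudogenes.

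Srm encodes spermidine synthase (chr4:148591503-148594993, + strand) and had the highest level per kilobase of exon of the 9 members in every group. At 4 h, its vehicle libraries had 222, 214.5, and 209 CPM, and its FGF6 libraries 326, 345, and 324 CPM. At 8 h, the values were 162, 155, and 147 CPM with vehicle and 374, 369, and 347 CPM with FGF6. At 24 h, they were 124, 107, and 94.6 CPM with vehicle and 202, 207, and 215 CPM with FGF6. The groups were apart at each time, with the widest gap at 8 h. For Srm, the log2 fold change was 0.62 ± 0.06 at 4 h (adjusted p = 9.25e-10), 1.23 ± 0.06 at 8 h (adjusted p = 1.17e-15), and 0.94 ± 0.06 at 24 h (adjusted p = 3.27e-13). The effect was larger at 8 h than at 4 h by 0.61 ± 0.08 (adjusted p = 3.7e-06) and lower at 24 h than at 8 h, with a difference of −0.30 ± 0.08 (adjusted p = 0.00533). Between 8 and 24 h, Srm fell by 0.81 with FGF6 (adjusted p = 1.01e-11) and by 0.51 with vehicle (adjusted p = 1.37e-07).

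Sms encodes spermine synthase (chrX:157443855-157492287, − strand). Its vehicle libraries had 13.65, 14.8, and 14.1 CPM at 4 h, and its FGF6 libraries 20.1, 20.1, and 21.25 CPM. The values at 8 h were 15.9, 15.0, and 17.4 CPM with vehicle and 23.3, 25.3, and 25.0 CPM with FGF6. At 24 h, it had 17.7, 14.1, and 14.9 CPM with vehicle and 33.8, 30.6, and 32.7 CPM with FGF6. Vehicle libraries lay between 13.65 and 17.7 CPM over the day, and the FGF6 libraries at 24 h were the highest of all 18. From 4 to 8 h with vehicle, Sms changed by 0.18 ± 0.08 on the log2 scale (adjusted p = 0.0543), without overlap of the libraries. That change passed with library sizes alone (adjusted p = 0.0352) and with upper-quartile factors (adjusted p = 0.0432). It also passed at the 0.25 threshold and without vehicle replicate 2 at 8 h (0.23, adjusted p = 0.0304). The fitted log2 fold change of Sms was 0.53 ± 0.07 at 4 h (adjusted p = 8.77e-07), 0.61 ± 0.07 at 8 h (adjusted p = 3.55e-08), and 1.06 ± 0.07 at 24 h (adjusted p = 7.12e-13). The effect at 24 h exceeded that at 8 h by 0.45 ± 0.10 (adjusted p = 0.000699), while 8 h differed from 4 h by 0.08 ± 0.10 (adjusted p = 0.614). Here 17.5% of the 50-base stretches (28.1% of those in coding transcripts) are shared, mostly with the pseudogene Sms-ps.

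Sat1 encodes spermidine/spermine N-acetyltransferase, which opens the way back by acetylating polyamines (chrX:155213132-155216449, − strand). At 4 h, its vehicle libraries had 52.6, 54.6, and 60.4 CPM, and its FGF6 libraries 117.5, 118, and 117 CPM. At 8 h, the values were 51.4, 51.2, and 55.6 CPM with vehicle and 117, 116.5, and 113 CPM with FGF6. At 24 h, they were 73.8, 66.7, and 75.1 CPM with vehicle and 172, 160.5, and 155 CPM with FGF6. Each FGF6 library was well above the vehicle libraries of its time, and both treatments were highest at 24 h. Sat1 changed by a log2 fold of 1.07 ± 0.05 at 4 h (adjusted p = 9.88e-16), 1.13 ± 0.05 at 8 h (adjusted p = 1.88e-16), and 1.18 ± 0.05 at 24 h (adjusted p = 3.28e-17). No difference between these 3 effects passed the test, and 24 h differed from 4 h by 0.11 ± 0.07 (adjusted p = 0.198). With library sizes alone, that last difference was 0.20 and passed (adjusted p = 0.0135). From 8 to 24 h, Sat1 rose by 0.45 ± 0.05 with vehicle (adjusted p = 8.15e-08) and by 0.49 ± 0.05 with FGF6 (adjusted p = 1.64e-09).

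Smox encodes spermine oxidase, which turns spermine directly back into spermidine (chr2:131491496-131525922, + strand), and shares no 50-base stretch with another annotated gene. At 4 h, its vehicle libraries had 18.8, 16.1, and 18.6 CPM, and its FGF6 libraries 32.6, 32.1, and 31.1 CPM. At 8 h, the values were 12.8, 14.3, and 11.8 CPM with vehicle and 22.95, 20.3, and 19.6 CPM with FGF6. At 24 h, they were 11.0, 10.8, and 10.6 CPM with vehicle and 28.9, 27.3, and 27.6 CPM with FGF6. The FGF6 libraries dipped at 8 h and came back in part, staying below their 4 h values at 24 h. Vehicle libraries were lowest at 24 h. For Smox, the log2 fold change was 0.84 ± 0.07 at 4 h (adjusted p = 6.11e-11), 0.69 ± 0.07 at 8 h (adjusted p = 6.96e-09), and 1.37 ± 0.07 at 24 h (adjusted p = 1.05e-14). The effect at 24 h exceeded that at 8 h by 0.68 ± 0.11 (adjusted p = 9.1e-06), while 8 h differed from 4 h by −0.15 ± 0.10 (adjusted p = 0.286). Later, from 8 to 24 h, Smox fell by 0.27 with vehicle (adjusted p = 0.00753), a call that was lost without vehicle replicate 2 at 8 h (−0.19), and rose by 0.41 ± 0.07 with FGF6 (adjusted p = 1.14e-05).

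**Figure D2:**
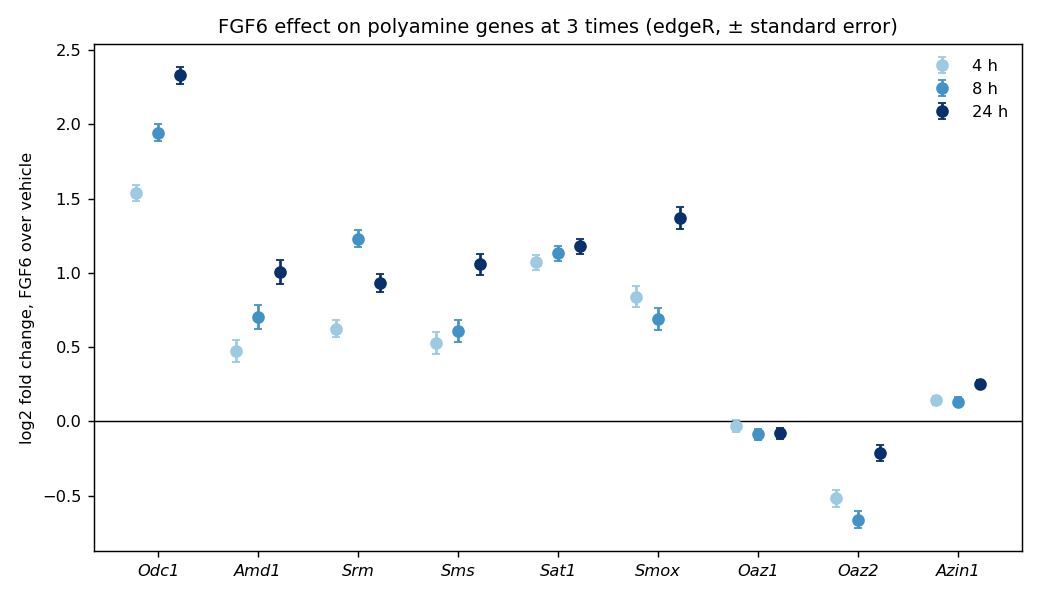
Log2 fold change of FGF6 over vehicle (y axis) for each member (x axis) at 4 h (light blue), 8 h (blue), and 24 h (dark blue), with bars for ± 1 standard error from edgeR. Odc1 climbs from 1.54 to 2.33, Sat1 keeps between 1.07 and 1.18, Srm peaks at 1.23 at 8 h, and Oaz2 lies below 0 at all 3 times.

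The regulators of ornithine decarboxylase come next. Oaz1, the widely expressed antizyme (chr10:80826656-80829290, + strand), had 68.3, 65.7, and 70.5 CPM with vehicle and 67.9, 67.4, and 64.8 CPM with FGF6 at 4 h. At 8 h, it had 78.9, 74.4, and 73.5 CPM with vehicle and 71.85, 71.8, and 70.0 CPM with FGF6. At 24 h, it had 89.4, 87.1, and 85.1 CPM with vehicle and 80.8, 84.4, and 82.65 CPM with FGF6. The groups overlapped at 4 h and were apart by a small margin later. The log2 fold change was −0.03 ± 0.04 at 4 h (adjusted p = 0.52), −0.09 ± 0.04 at 8 h (adjusted p = 0.0482), and −0.08 ± 0.04 at 24 h (adjusted p = 0.0658). The call at 8 h was lost in 4 of 9 alternative analyses and when any of 5 of its 6 libraries was left out (all but vehicle replicate 3), with values from −0.03 to −0.11 over the left-out libraries. With library sizes alone, the value at 4 h was −0.13 (adjusted p = 0.00634). With time, Oaz1 rose in both treatments, by 0.21 from 8 to 24 h with vehicle (adjusted p = 6.89e-05) and with FGF6 (adjusted p = 3.1e-05). Of its 50-base stretches, 21% (45.5% of those in coding transcripts) are shared, mainly with Oaz1-ps, and 74 exonic bases overlap Mir1982 on the same strand.

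Oaz2, the second antizyme (chr9:65668001-65690300, + strand), was the member with a clear decrease. At 4 h, it had 24.2, 23.6, and 25.6 CPM with vehicle and 17.7, 16.2, and 17.35 CPM with FGF6. At 8 h, it had 33.8, 30.9, and 29.4 CPM with vehicle and 19.0, 20.3, and 20.3 CPM with FGF6. At 24 h, it had 37.6, 38.6, and 36.2 CPM with vehicle and 31.9, 31.9, and 33.4 CPM with FGF6. All FGF6 libraries were below all vehicle libraries of their time, by the smallest margin at 24 h. Its log2 fold change was −0.52 ± 0.06 at 4 h (adjusted p = 2.94e-08), −0.66 ± 0.06 at 8 h (adjusted p = 1.08e-10), and −0.21 ± 0.05 at 24 h (adjusted p = 0.000934). The effect at 24 h was less negative than that at 8 h by 0.45 ± 0.08 (adjusted p = 3.44e-05). From 8 to 24 h, Oaz2 rose by 0.71 ± 0.06 with FGF6 (adjusted p = 6.2e-11) and by 0.26 ± 0.05 with vehicle (adjusted p = 0.000222).

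Azin1 encodes antizyme inhibitor 1, a protein related to ornithine decarboxylase that binds antizymes in its place (chr15:38487427-38519266, − strand). At 4 h, it had 370.5, 379, and 383 CPM with vehicle and 410.0, 415, and 424 CPM with FGF6. At 8 h, it had 266, 274, and 271 CPM with vehicle and 296, 297, and 297.5 CPM with FGF6. At 24 h, it had 295, 291.5, and 299 CPM with vehicle and 355, 349, and 352 CPM with FGF6. The difference was small beside the level, yet the libraries did not overlap. On the log2 scale, the fold change was 0.14 ± 0.03 at 4 h (adjusted p = 8.94e-05), 0.13 ± 0.03 at 8 h (adjusted p = 0.000142), and 0.25 ± 0.03 at 24 h (adjusted p = 9.79e-09). With library sizes alone, the value at 4 h was 0.04 (adjusted p = 0.204), and the increase did not pass. Azin1 also changed with time, and fell by 0.48 from 4 to 8 h with vehicle (adjusted p = 5.88e-13) and by 0.49 with FGF6 (adjusted p = 2.4e-13). An antisense gene, Gm49077, covers 358 of its 6256 exonic bases, and the strand setting of the counting is not given in the sources used here.

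The effect of FGF6 differed between 4 and 8 h for 2 members, Odc1 and Srm, both larger at 8 h, against 30.6% of all genes. Between 8 and 24 h it differed for 7 members, against 45.1% of all genes, and Srm was the 1 member among them with the lower value at 24 h. Between 4 and 24 h it differed for 7 members, all with the higher value at 24 h, against 53.5% of all genes. For Oaz2 a higher value meant a smaller decrease. Sat1 and Oaz1 differed in none of the 3 comparisons. The 24 h against 8 h difference of Amd1 (0.30 ± 0.11, adjusted p = 0.0341) was lost without FGF6 replicate 1 at 24 h (0.25), FGF6 replicate 1 at 8 h (0.27), vehicle replicate 1 at 24 h (0.22), or vehicle replicates 2 (0.28) or 3 (0.24) at 8 h, and with at least 10 counts in every library (0.27, adjusted p = 0.0529).

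Changes over time were then examined within each treatment. From 4 to 8 h with vehicle, 2 members rose (Oaz1 and Oaz2) and 5 fell (Odc1, Amd1, Srm, Smox, and Azin1), where 43% of all genes were called. With FGF6, 3 rose (Sms, Oaz1, and Oaz2) and 2 fell (Smox and Azin1), where 48.2% of all genes were called. The rise of Oaz1 (adjusted p = 0.0487) was lost in 3 of 9 alternatives and when FGF6 replicate 2 or 3 at 4 h or replicate 1 or 2 at 8 h was left out, while Srm (0.13, adjusted p = 0.0649) passed in 7 of the 9. From 8 to 24 h with vehicle, 4 rose (Sat1, Oaz1, Oaz2, and Azin1) and 3 fell (Amd1, Srm, and Smox), against 49.2% of all genes called. With FGF6, 7 rose and Srm fell, against 62.3% of all genes called, and Amd1 was the 1 member that did not pass.

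Levels of different genes were compared as CPM per kilobase of exon, with all annotated exons of a gene merged. Transcripts in these cells may be shorter than that length, by an amount that was not measured. The order of genes with similar levels therefore depends on the length used. These levels are uncertain for members with shared sequence, because the counting of reads that map to several places is not given. In coding transcripts, 86% of the 50-base stretches of Amd1, 45.5% of Oaz1, 42.2% of Odc1, and 28.1% of Sms occur in other genes. For the other members, the shares were 9.48% (Oaz2), 6.86% (Sat1), 6.01% (Azin1), 2.4% (Srm), and 0% (Smox). The order below was corrected neither for shared sequence nor for the exons in use. With vehicle at 4 h, the order was Srm (134.5 ± 3.87, SD, n = 3), Azin1 (60.3 ± 1.01), Oaz1 (26.65 ± 0.936), Sat1 (20.15 ± 1.45), Odc1 (15.5 ± 0.548), Oaz2 (8.18 ± 0.336), Amd1 (4.73 ± 0.144), Smox (4.58 ± 0.396), and Sms (2.36 ± 0.0938). Of neighbours in that order, Amd1 and Smox alone had overlapping libraries. On this scale, Odc1 with FGF6 at 4 h (45.1 CPM per kilobase) was above both Sat1 (42.3) and Oaz1 (26.1). Its place against Sat1 could differ with other exon lengths. With FGF6 at 24 h, Sat1 (58.6) and Azin1 (56.3) overlapped, with Odc1 (53.5) just below them and Oaz1 at 32.3. With vehicle at 24 h, Odc1 (10.6) was below Oaz2 (12.5), and Amd1 (3.01), Smox (2.77), and Sms (2.59) each overlapped the next in order.

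Ratios between members within a library do not depend on the scaling of libraries, and are given as a description. Their absolute size carries the same uncertainty from shared sequence and exon length as the levels. The ratio of Odc1 to Sat1 per kilobase of exon was 0.772 ± 0.0484 with vehicle and 1.065 ± 0.015 with FGF6 at 4 h (SD, n = 3 libraries each), 0.592 ± 0.046 and 1.04 ± 0.0394 at 8 h, and 0.411 ± 0.0527 and 0.914 ± 0.034 at 24 h. The groups did not overlap at any time, and the vehicle ratio came down over the day. The ratio of Azin1 to Oaz1 was 2.27 ± 0.0791 with vehicle and 2.55 ± 0.108 with FGF6 at 4 h, 1.46 ± 0.0765 and 1.705 ± 0.0302 at 8 h, and 1.385 ± 0.0459 and 1.74 ± 0.0525 at 24 h, also without overlap. The ratio of Srm to Sms overlapped between treatments at 4 h, at 57.1 ± 3.41 with vehicle and 60.95 ± 3.59 with FGF6, and at 24 h, at 26.3 ± 2.3 and 24.2 ± 1.52. It was apart at 8 h, at 36.3 ± 3.82 and 55.7 ± 4.14.

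**Figure D3:**
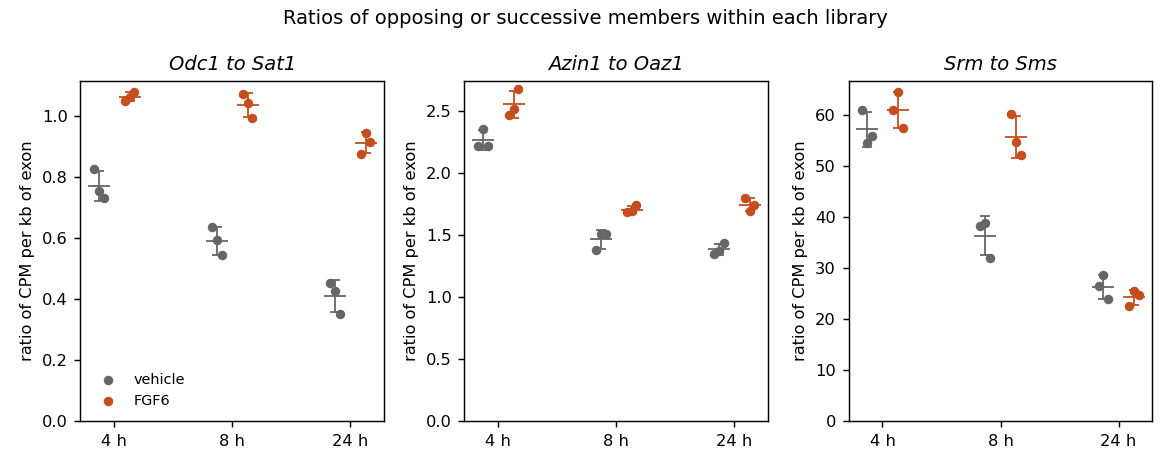
Ratio of CPM per kilobase of exon (y axis, from 0) for Odc1 to Sat1, Azin1 to Oaz1, and Srm to Sms at 4, 8, and 24 h (x axis, equally spaced), with 1 point per library, vehicle in grey and FGF6 in orange, and marks and bars for the mean ± SD of 3 libraries. The Odc1 to Sat1 ratio lies at 0.878 to 1.08 with FGF6 and at 0.352 to 0.826 with vehicle.

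Around the 9 members, 33 further genes of the pathway were in the table, and 25 were tested. Of these, 14 were called higher and 8 lower at 4 h, 12 and 8 at 8 h, and 12 and 11 at 24 h, beside 28.6% and 34.2%, 32.4% and 38.4%, and 35.9% and 37.9% of all genes. Without vehicle replicate 3 at 24 h, an alternative chosen after the data were seen, they were 12 and 10 at 24 h (71% of all genes called). Their median log2 fold change was 0.35, 0.23, and 0.11 at the 3 times, and these genes, unlike the enzymes above, were split in direction. Myc, the transcription factor known for activating Odc1, had 82.1, 77.2, and 74.3 CPM with vehicle and 308.5, 326, and 321 CPM with FGF6 at 4 h. It rose by 2.03 ± 0.05 at 4 h (adjusted p = 9.36e-21), 2.31 ± 0.06 at 8 h (adjusted p = 6.17e-22), and 1.74 ± 0.06 at 24 h (adjusted p = 1.26e-19). Its effect was lower at 24 h than at 8 h (−0.57 ± 0.08, adjusted p = 1.22e-06), while that of Odc1 was higher.

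A pair of further members of the same families went the other way from their better-expressed relatives. Azin2, the other antizyme inhibitor, had 15.9, 15.0, and 16.65 CPM with vehicle and 2.70, 3.07, and 3.56 CPM with FGF6 at 24 h, a log2 fold change of −2.35 ± 0.10 (adjusted p = 8.2e-17). It was already lower at 4 h (−1.42 ± 0.11, adjusted p = 1.55e-11) and at 8 h (−2.21 ± 0.11, adjusted p = 1.66e-15). Sat2, a relative of Sat1, had 6.76, 8.47, and 8.03 CPM with vehicle and 2.55, 2.54, and 2.42 CPM with FGF6 at 24 h, a log2 fold change of −1.63 ± 0.15 (adjusted p = 2.74e-10), after −1.06 ± 0.17 at 4 h (adjusted p = 8.46e-06) and −1.42 ± 0.15 at 8 h (adjusted p = 8.93e-09). Of the 4 tested genes in this list, 3 were called lower at each time (Azin2, Sat2, and Paox, the acetylpolyamine oxidase), where 34.2%, 38.4%, and 37.9% of all genes were. At 24 h the groups of Paox overlapped (adjusted p = 0.0257), and 28.5% of its 50-base stretches are shared with other genes. The fourth, Amd2, was called higher at 24 h, on 2 to 13 counts per library with overlapping groups (adjusted p = 0.045), and it shares 85.7% of its 50-base stretches with other genes.

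Hypusine is a modified lysine of the translation factor eIF5A that is made from spermidine. All 4 genes of its formation were called higher at 4 and 8 h, where 28.6% and 32.4% of all genes were. For Dohh, which is among them, 45.3% of the 50-base stretches are shared with another gene, Gm48551, so its counts are uncertain. Eif5a, which encodes the factor itself, had 569, 518, and 511 CPM with vehicle and 1111, 1127, and 1137 CPM with FGF6 at 24 h. It rose by 0.62 ± 0.03 at 4 h (adjusted p = 2.72e-14), 0.88 ± 0.03 at 8 h (adjusted p = 1.1e-17), and 1.08 ± 0.03 at 24 h (adjusted p = 1.25e-19). At 24 h, 3 of the 4 were called higher, and Eif5a2 was called lower at −0.11 ± 0.05 (adjusted p = 0.0484). Without vehicle replicate 3 at 24 h, Eif5a2 did not pass (−0.05, adjusted p = 0.475).

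In the supply of ornithine, 1 of 4 tested genes was called higher and 1 lower at 4 h and at 8 h, and 2 and 2 at 24 h, beside 28.6% and 34.2%, 32.4% and 38.4%, and 35.9% and 37.9% of all genes. Oat, the aminotransferase that links ornithine to glutamate semialdehyde, was the gene lower at 4 and 8 h, with a log2 fold change of −0.66 at 4 h (adjusted p = 1.93e-15), −0.83 at 8 h (adjusted p = 8.02e-18), and −0.49 at 24 h (adjusted p = 2.04e-13). Arg2, the mitochondrial arginase that releases ornithine, had 2.63, 2.62, and 3.11 CPM with vehicle and 9.74, 8.57, and 8.955 CPM with FGF6 at 24 h, a log2 fold change of 1.71 ± 0.13 (adjusted p = 7.4e-12). That effect exceeded the one at 8 h by 1.26 ± 0.20 (adjusted p = 1.53e-05). Of the 50-base stretches of Arg2, 21.2% are shared with other genes, first among them Vti1b. Aldh18a1, which makes the precursor of ornithine from glutamate and had the highest mean CPM of the list over all 18 libraries, was at 0.15 ± 0.04 at 24 h (adjusted p = 0.000362) and did not pass at 4 or 8 h.

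Among transporters, 3 of 5 tested genes were called higher and 2 lower at 4 h and at 8 h, and 2 and 3 at 24 h, where 28.6% and 34.2%, 32.4% and 38.4%, and 35.9% and 37.9% of all genes were called higher and lower. Slc7a1, the importer of arginine and ornithine, had 92.6 to 104 CPM with vehicle and 197 to 218 CPM with FGF6 at 8 h, a log2 fold change of 1.07 ± 0.05 (adjusted p = 1.32e-16). The effect at 24 h was lower, with a difference of −0.83 ± 0.07 (adjusted p = 1.28e-10). Atp13a3, a polyamine transporter of the endosome and the one with the highest mean CPM in the list, was at 0.37 ± 0.04 at 4 h (adjusted p = 2.82e-09) and at 0.11 ± 0.04 at 24 h (adjusted p = 0.00762).

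Methylthioadenosine is the by-product of both aminopropyl transfers. Among genes that make S-adenosylmethionine or recover methionine from methylthioadenosine, 5 of 7 tested were called higher and 2 lower at 4 h. At 8 h and at 24 h, 3 were called higher and 2 lower. Of all genes, 28.6%, 32.4%, and 35.9% were called higher and 34.2%, 38.4%, and 37.9% lower at the 3 times. Mat2a and Mat2b belong to the step that makes S-adenosylmethionine. Mat2a was among the higher genes at 4 h only, and Mat2b among the lower genes at all 3 times. Mtap, which cleaves methylthioadenosine and had the highest mean CPM of the list, rose by 0.66 ± 0.03 at 4 h (adjusted p = 2.23e-15), 0.83 ± 0.03 at 8 h (adjusted p = 1.34e-17), and 0.46 ± 0.03 at 24 h (adjusted p = 1.46e-12). Mat2a, which encodes the catalytic subunit of the enzyme that makes S-adenosylmethionine, was called higher at 4 h on 43, 50, and 28 counts with FGF6 against 0, 1, and 0 with vehicle. Its counts jumped between libraries of a group at 8 h, at 0, 26, and 19 with vehicle and 32, 0, and 28 with FGF6, so its values are given without a fold change.

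**Figure D4:**
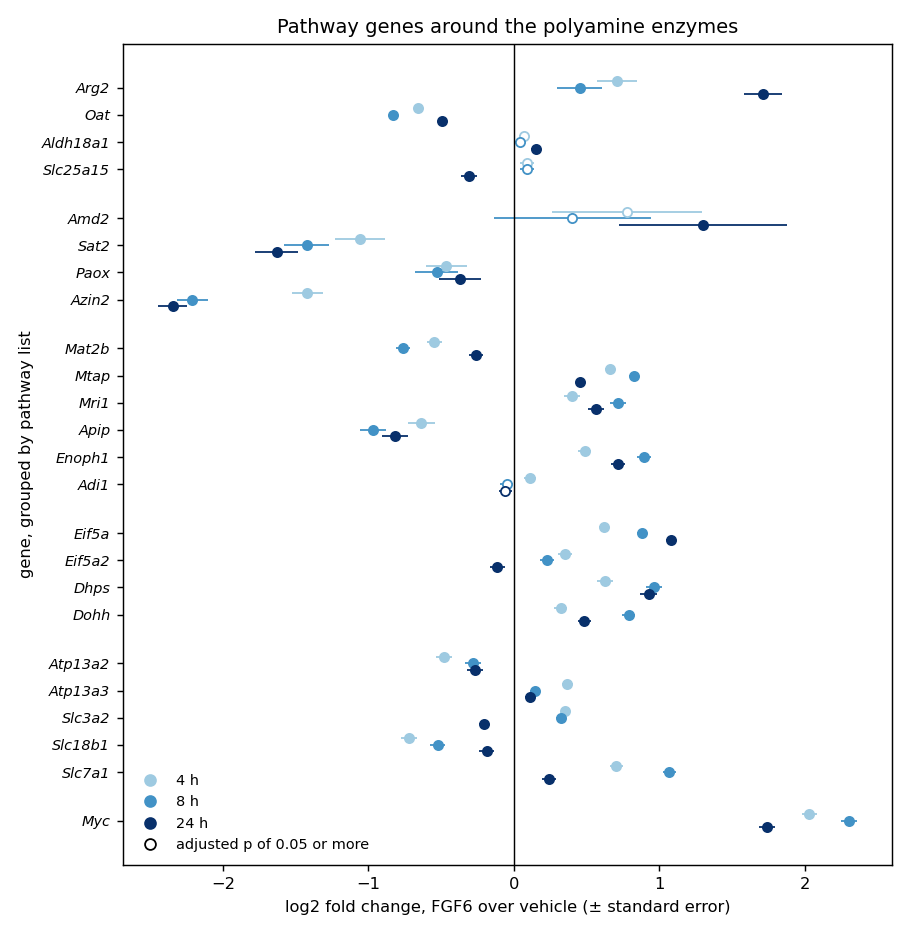
Log2 fold change of FGF6 over vehicle (x axis) for 24 of the 25 tested pathway genes (y axis, grouped by list in the order ornithine supply, further family members, methionine and methylthioadenosine, hypusine, transport, and Myc) at 4, 8, and 24 h, with bars for ± 1 standard error from edgeR and open points for an adjusted p of 0.05 or more. Mat2a is left out. Azin2 and Sat2 lie furthest to the left and Myc furthest to the right.

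Genes whose log2 CPM over the 18 libraries resembled a member's most were found by Pearson's r among 12260 genes, as a description in which all points share the same libraries and treatments. For Odc1 they were Plk3, a polo-like kinase (r = 0.997), Dgkd, a diacylglycerol kinase (r = 0.996), and Cdk20, a cyclin-dependent kinase (r = 0.994). For Sat1 they were Nfe2l2, which encodes the antioxidant regulator NRF2 (r = 0.992), Utp3 (r = 0.988), and Memo1 (r = 0.987).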

How the data were processed

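RNA of mouse brown preadipocytes was sequenced after vehicle or FGF6 exposure, and groups were taken from the labels. The authors aligned reads to GRCm38 with STAR, obtained counts for each gene from featureCounts of Subread, and deposited these raw counts without normalization. Versions, the strand setting, and the handling of reads that map to several places are not given in the sources used here, so members with near-identical copies are uncertain. Genes were kept with filterByExpr (15071 of 48023), scaled by TMM, and tested with edgeR 4.0.16 (R 4.3.3) by the quasi-likelihood test over all 18 libraries, without covariates. Effects at different times were compared by an interaction contrast. The Benjamini-Hochberg method gave adjusted p-values, and standard errors are those implied by the F statistic. CPM are relative to the library total of tested genes after TMM scaling. Alternatives were limma 3.58.1 with voom, DESeq2 1.42.0, scaling by totals alone or by upper quartiles, no filter, at least 10 counts in every library, the libraries compared only, the replicate number as a block, the 0.25 threshold, and leaving out each library. The test was checked on simulated counts for the 4 h comparison in the design with 18 libraries. In a simulated fit of only the libraries compared at 4 h, false calls were more frequent than the threshold implies.

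The members and gene lists were chosen with earlier results of these data known. Named beside the members are, from each pathway list, every gene called with a log2 fold change of at least 1 in size at any time, the gene with the highest mean CPM, and Myc, as well as the 3 genes most like Odc1 and the 3 most like Sat1. Paox, Eif5a2, Oat, and Mat2b were named after their values were seen, to complete counts, and Dohh for its shared sequence. Symbols, positions, and exon lengths came from the GENCODE annotation of GRCm38 (98.3% of identifiers matched). Start windows came from RefSeq.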

Additional observations from a re-analysis of the deposited data

Results flagged for a closer look

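The effect of FGF6, as a log2 fold change over vehicle, differed between times for 16 pairs of a member and a comparison by edgeR's interaction test (adjusted p under 0.05 over all genes tested). Between 4 and 8 h, the effect was larger at 8 h for Odc1 by 0.41 (adjusted p = 0.000245) and for Srm by 0.61 (adjusted p = 3.7e-06). From 8 to 24 h, it increased for Odc1 by 0.38 (adjusted p = 0.00029), Amd1 by 0.30 (adjusted p = 0.0341), Sms by 0.45 (adjusted p = 0.000699), Smox by 0.68 (adjusted p = 9.1e-06), and Azin1 by 0.12 (adjusted p = 0.016), and the decrease of Oaz2 shrank by 0.45 (adjusted p = 3.44e-05). Srm went the other way, with a difference of −0.30 (adjusted p = 0.00533). From 4 to 24 h, the differences were 0.79 for Odc1 (adjusted p = 4.04e-09), 0.53 for Amd1 (adjusted p = 0.000268), 0.31 for Srm (adjusted p = 0.00287), 0.53 for Sms (adjusted p = 0.000106), 0.53 for Smox (adjusted p = 9.51e-05), 0.31 for Oaz2 (adjusted p = 0.00199), and 0.11 for Azin1 (adjusted p = 0.0189). The 2 differences of Azin1 did not pass without the filter on low counts (adjusted p = 0.157 and 0.175) or with at least 10 counts in every library (adjusted p = 0.0579 and 0.112), and that of Amd1 from 8 to 24 h did not pass with at least 10 counts (0.27, adjusted p = 0.0529).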

How the results depend on the processing

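The count of members called higher with FGF6 was 7 under every alternative at 8 h and 24 h and 6 or 7 at 4 h. Counts called lower moved through Oaz1, whose values lie near the threshold. At 8 h the count was 1 in place of 2 with DESeq2, without a filter, with at least 10 counts in every library, and with only the libraries compared, and it was 1 to 2 over the left-out libraries. At 4 h it was 2 in place of 1 with library sizes alone, and at 24 h it was 2 in place of 1 with upper-quartile factors, at least 10 counts, or the 0.25 threshold. At that threshold, 1 member (Oaz2) had a lower effect at 8 h than at 4 h, where 0 did at 0.05. From 8 to 24 h in vehicle, the 3 called lower became 1 to 3 over the left-out libraries, 1 without vehicle replicate 2 at 8 h. The cause was not tested. No called value changed its direction, and Oaz1 at 4 h, which was not called, ran from −0.13 to 0.01. Exon length is a constant for each gene, so leaving it out changes the size of a ratio and cannot change the order of the groups. The ratio of Odc1 to Sat1 in counts alone is 0.504 with vehicle and 1.12 with FGF6 at 24 h.

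Same-numbered libraries did not deviate together (r from −0.0275 to 0.0486 over 9 pairs), so the numbers were not read as a pairing. With the replicate block, 7, 7, and 7 members were higher and 1, 2, and 1 lower at 4, 8, and 24 h, and the 1 call that changed was the rise of Srm from 4 to 8 h with FGF6, which then passed (0.13, adjusted p = 0.0408 in edgeR), as it did in 6 other alternatives. Over all comparisons of the 9 members, the value kept its side of the threshold 775 times, gained a call 21 times, and lost one 14 times under these alternatives, and 679, 5, and 18 times when a library was left out. The lowest count of a member in any library was 252 (Smox).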
